A study of Arabidopsis thaliana with 13 samples.

Results

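Morning seedlings were set against evening seedlings within 1 circadian time course of Arabidopsis thaliana, read on Affymetrix ATH1 arrays, on which a set of short probes reports each transcript. The morning side held the 5 arrays of hours 26, 30, 50, 54 and 74, whose hour modulo 24 is 2 or 6. The evening side held the 4 arrays of hours 34, 38, 58 and 62, whose hour modulo 24 is 10 or 14. These are 9 of the 13 arrays of the course, which ran in steps of 4 h. The other 4, at hours 42, 46, 66 and 70 (18 or 22 modulo 24, called late here), stayed out of the comparison. Every array of both sides carries the same labels apart from its hour: Col-0 whole seedlings of stock N1093 at developmental stage 1.0, in a growth room at 22 C under a 12 h photoperiod, on MS agar plates containing 3% sucrose, with no mutation or agent named. Morning and evening are names for these hours modulo 24, since the labels give neither the event at hour 0 nor the light regime during sampling.

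Each time point is a single array, and the labels do not tie any array to a separate culture. The arrays of a side therefore differ by time of day and by day of the course as well as by chance, and the p-values below measure the difference between sides against that joint spread. Values are the deposited signals on a linear scale. They are given for hours 26, 30, 50, 54 and 74 in morning arrays and for hours 34, 38, 58 and 62 in evening arrays, in that order. A fold is the ratio of the geometric means of the sides, and a log2 difference is morning minus evening. A probe set was called where limma's moderated test gave a Benjamini-Hochberg adjusted p under 0.05 over all probe sets tested.

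The plant circadian clock is a loop of transcriptional repressors that turns roughly once a day. It times the transcription of many genes to certain hours, so that a transcript can be abundant in the morning and scarce in the evening or the reverse. In Arabidopsis leaves, starch made in the light is broken down at night by plastid enzymes, sugars move between cytosol, vacuole and neighbouring cells through families of transporters, and the response to cold is gated by the clock. Growth of cell walls and the making of anthocyanins are also known to follow daily rhythms.

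Markers of green tissue and of root both gave signal. The green tissue markers RCA, LHCB4.1 and PRK read 1672 to 3950 over the 13 arrays, and LHCB4.2 854 to 3127. Of the root markers, PYK10 read 2524 to 3492, while EXPA7, EXPA18 and AT5G66390 read 21.7 to 211, partly dim. The summed signal of the 4 green markers was 8782 to 13322 in morning arrays and 8727 to 9764 in evening arrays, that of the 4 root markers 2884 to 3653 in morning arrays and 2713 to 3176 in evening arrays, and ICL, a marker of seed reserve use, read 573 to 1510 in morning arrays and 558 to 1438 in evening arrays. None of these 9 markers was called. Each array had a trimmed mean of 100.01, and RNA came from whole seedlings, so fewer cells of a type and less RNA per cell cannot be told apart.

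A small share of the transcriptome differed between the sides. Of 13647 probe sets tested, 279 were higher in morning arrays (2.04%) and 359 were higher in evening arrays (2.63%), together 638 (4.68%), and 2484 had an unadjusted p under 0.05. Most differences were modest. The median was 1.64-fold for the 279 (quartiles 1.45 and 2.19) and 1.53-fold for the 359 (quartiles 1.41 and 1.86), and 85 of the 279 and 70 of the 359 reached 2-fold. In 256 of the 279 and 338 of the 359 no morning value overlapped an evening value, against 1192 of all 13647 (8.73%). The median log2 difference of all tested probe sets was -0.01, and the median SE of a called difference was 0.13. The number higher in morning arrays was 169 without hour 38 and 170 without hour 50. The number higher in evening arrays was 201, 196, 193 and 193 when hour 34, 38, 58 or 62 was left out, in that order, and 234 when hour 50 was. Only 284 of the 638 probe sets are paired with a single gene here, 121 of the 279 and 163 of the 359, and the probe sets with the largest folds, 14.3-fold on the morning side and 14.7-fold on the evening side, are not named.

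**Figure D1:**
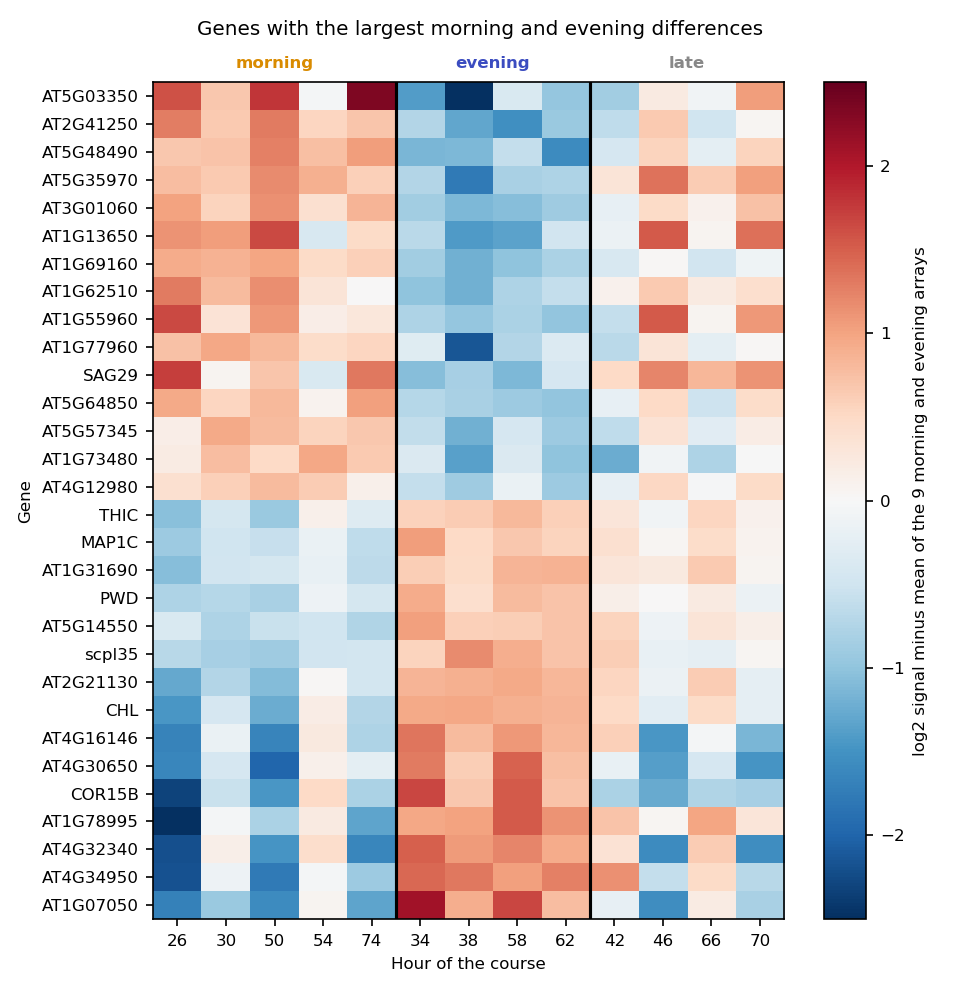
Heat map of the 15 genes with the largest difference on each side (rows) on the 13 arrays (columns, by hour; morning, evening, then late arrays). Colour is the log2 signal minus the gene's mean over the 9 morning and evening arrays, and colours end at 2.5 on either side. The upper 15 genes are red in morning arrays and blue in evening arrays, the lower 15 the reverse, apart from some cells at hour 54 and that of AT4G32340 at hour 30.

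Among genes with a single annotation and no overlap between the sides, AT5G03350 had the largest morning excess on the log2 scale without an offset. Its signals were 173, 91.7, 198, 55.1 and 288 in morning arrays, against 21.8, 4.62, 43.7 and 29.4 in evening arrays (7.27-fold, log2 difference of 2.86 ± 0.62 SE, adjusted p = 0.025). It is dim in the evening, and with an offset of 32 added before the logarithm it was 3.17-fold higher, under 3.71-fold for AT5G48490, and it was not called without hour 34, 50 or 74 (adjusted p up to 0.064). AT2G41250 read 352, 229, 359, 212 and 236 in morning arrays, against 87.7, 59, 50.3 and 76.9 in evening arrays (4.05-fold, log2 difference of 2.02 ± 0.20 SE, adjusted p = 0.00038). For AT5G48490 the morning signals were 1121, 1152, 1692, 1190.0 and 1464, against evening signals of 319.8, 324, 470.2 and 239 (3.98-fold, log2 difference of 1.99 ± 0.18 SE, adjusted p = 0.00025). The lowest morning value lay more than 2-fold above the highest evening value in both. AT5G35970 read 439, 409, 583, 475 and 389.6 in morning arrays, against 155, 75.6, 148 and 152 in evening arrays (3.57-fold, adjusted p = 0.00074). AT3G01060 had the smallest SE of these first 5 genes, with 259, 189.6, 283, 170.3 and 232 in morning arrays, against 70.5, 58.8, 61.1 and 69.1 in evening arrays (3.44-fold, log2 difference of 1.78 ± 0.15 SE, adjusted p = 0.00014). The files and tables used here give these genes a locus tag but no symbol, so no role is stated for them.

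The other 9 genes without a symbol among the 15 were also separate on every array. AT1G69160 was 3.34-fold higher (morning 207, 201, 218, 154 and 166, evening 59.9, 47.6, 54.7 and 63.5, adjusted p = 0.00011), AT1G62510 3.05-fold and AT1G55960 2.98-fold. AT5G64850 was 2.9-fold higher, AT5G57345 2.66-fold, AT1G73480 2.62-fold and AT4G12980 2.21-fold, and all 4 were called in each of 20 alternatives. AT1G13650 (3.38-fold) and AT1G77960 (2.98-fold) are dim, at 1.91-fold and 1.7-fold with the offset, and AT1G13650 lost its call without hour 38 or 58 (adjusted p up to 0.065).

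Single sugar transporters stood on both sides. Of 17 tested members of sugar transport and sucrose metabolism, 3 were higher in morning arrays and 1 was higher in evening arrays, with a median log2 difference of 0.06. SAG29, SFP1 and SFP2 joined this list after the calls were seen, and without them 1 of 14 was higher in morning arrays and 1 in evening arrays, so the count says nothing of the family. SAG29, also named SWEET15, is a SWEET-type sugar exporter first known from senescing leaves. It read 367, 116, 179, 84.6 and 274 in morning arrays, against 52.9, 61.8, 50.8 and 81.9 in evening arrays (2.92-fold, log2 difference of 1.55 ± 0.37 SE, adjusted p = 0.036). The sides just failed to overlap, the lowest morning value being at hour 54 and the highest evening value at hour 62, and the call was lost without hour 34, 38, 50, 58, 62 or 74 (adjusted p up to 0.10). SFP2, a sugar porter, had 80.5, 84.1, 82.6, 92.5 and 71.5 in morning arrays, against 50.9, 47.9, 50.8 and 45.9 in evening arrays (1.68-fold, log2 difference of 0.75 ± 0.10 SE, adjusted p = 0.0019). Its evening values spanned a narrow band below every morning value, and it was called in all alternatives that tested it. SWEET17, a fructose carrier of the vacuolar membrane, read 325, 357, 352, 250.1 and 324 in morning arrays, against 261, 209, 198 and 209 in evening arrays (1.46-fold, adjusted p = 0.029). The sides overlapped at hours 54 and 34, and the call was lost without hour 26, 30, 38, 50, 58, 62 or 74 (adjusted p up to 0.093). TMT1, which loads hexoses into the vacuole, went the other way, with 185, 204, 175, 219 and 169 in morning arrays, against 262, 258, 251 and 252 in evening arrays (1.35-fold higher in evening, adjusted p = 0.025; not called without hour 34, 38, 50, 58 or 62, adjusted p up to 0.073). Its relatives TMT2 and TMT3 had log2 differences of -0.08 and 0.06, and SFP1, the partner of SFP2 by name, -0.07, none called. SWEET13 and SWEET14 had log2 differences of 0.55 and 0.55 (adjusted p = 0.14 and 0.20).

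The only calls in the cell wall lists were 2 expansins higher in the morning. Expansins loosen the wall so that cells can enlarge. Of 11 expansins tested, 2 were higher in morning arrays and 0 in evening arrays, 9 had a positive difference, and the median was 0.31. Over all tested probe sets 2.04% were higher in morning arrays and the median was -0.01. No test of the family was run. Both calls were beta-expansins. EXPB1 read 111, 105, 112, 93.4 and 96.8 in morning arrays, against 53.1, 65.2, 58.4 and 66.1 in evening arrays (1.71-fold, log2 difference of 0.77 ± 0.11 SE, adjusted p = 0.0019). EXPB3 read 1179.9, 958, 1096, 588 and 863 in morning arrays, against 477, 539, 442 and 597 in evening arrays (1.79-fold, log2 difference of 0.84 ± 0.18 SE, adjusted p = 0.025). EXPB1 kept the sides wholly apart, while the EXPB3 value of hour 54 lay just under that of hour 62, and EXPB3 was not called without hour 30, 34, 38, 50 or 58 (adjusted p up to 0.080). The alpha-expansins EXPA4, EXPA9 and EXPA8 had log2 differences of 0.31, 0.24 and 0.50 (adjusted p = 0.23, 0.28 and 0.40). EXPA8 read 814, 1155, 839.6, 943 and 449.5 in morning arrays, against 865, 557, 649 and 332 in evening arrays, with the value of hour 74 below 3 of the 4 evening values. The 6 xyloglucan endotransglucosylases, 11 cellulose synthases and cellulases and 3 pectin enzymes tested gave 0 calls, with medians of 0.18, 0.09 and 0.17. XTH32, a xyloglucan-modifying enzyme, had a log2 difference of 0.74 (adjusted p = 0.13).

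The glutathione reductases GR1 and GR were higher in the morning, GR being a member added to its list after its call was seen. These enzymes return oxidised glutathione to its reduced form and so serve the scavenging of reactive oxygen. GR1, the enzyme of cytosol and peroxisomes, read 537, 487, 491, 415 and 571 in morning arrays, against 261, 349, 293 and 331 in evening arrays (1.62-fold, log2 difference of 0.70 ± 0.12 SE, adjusted p = 0.0062). GR, the enzyme of plastids and mitochondria, read 514, 467, 538, 477 and 436 in morning arrays, against 345, 349, 331 and 371 in evening arrays (1.39-fold, log2 difference of 0.48 ± 0.09 SE, adjusted p = 0.0097). The sides were separate for both, and both were called in all 20 alternatives. The other 12 tested members of reactive oxygen scavenging were not called, and the median of the 14 was 0.01, near that of all probe sets. Without GR, 1 of 13 was called. TRXF2, a plastid thioredoxin, had the largest difference among them (0.69, adjusted p = 0.0553), with an evening value of 536 at hour 34 above 2 morning values. Of 8 tau and other glutathione transferases 1 was called, GSTU20, with 1283, 1487, 1830.4, 1136 and 1493 in morning arrays, against 876, 776, 948 and 1041 in evening arrays (1.58-fold, adjusted p = 0.020; not called without hour 34 or 38, adjusted p up to 0.067). Of 25 UDP-sugar glycosyltransferases 1 was called, UGT88A1, with 728, 656, 894, 752 and 836 in morning arrays, against 571, 496, 545 and 474 in evening arrays (1.48-fold, log2 difference of 0.56 ± 0.10 SE, adjusted p = 0.011). Each morning value of these 2 genes lay above each evening value. With 4.68% of all probe sets called, 1 call of 25 is a result about that gene and not about the family.

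Among light-harvesting and photosystem genes 1 of 7 tested was higher in morning arrays and 0 in evening arrays. All 7 had a positive difference, with a median of 0.30. Over all tested probe sets 2.04% were higher in morning arrays and the median was -0.01, and no test of the group was run. PSAN, a subunit of photosystem I, read 1779.9, 2199, 2395, 2286 and 1991 in morning arrays, against 1727, 1442, 1746 and 1323 in evening arrays (1.37-fold, log2 difference of 0.45 ± 0.12 SE, adjusted p = 0.0496). The lowest morning value exceeded the highest evening value by little, and the call was kept without hour 26 but lost without hour 30, 34, 38, 50, 54, 58, 62 or 74 (adjusted p up to 0.14). LHCB4.2, an antenna protein of photosystem II, read 2015, 2913, 3127, 2858 and 2722 in morning arrays, against 2153, 854, 1962 and 969.6 in evening arrays, a log2 difference of 0.98 that did not pass (adjusted p = 0.0577). The evening values split by hour, with those of hours 34 and 58 about 2-fold above those of hours 38 and 62. PSBY and PSBW had log2 differences of 0.45 and 0.30 (adjusted p = 0.072 and 0.21). CaS, a thylakoid calcium sensor that acts in stomatal closure, was 1.38-fold higher with overlapping sides (morning 1139, 961, 1181, 850.0 and 1077, evening 691, 768, 689 and 873, adjusted p = 0.0453) and was not called without hour 26, 30, 34, 38, 50, 58 or 74 (adjusted p up to 0.14).

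Of the other morning genes with a symbol, which were picked for having been called, THI2.2 encodes a thionin, a small defence peptide. It read 268, 332, 339, 472 and 249.7 in morning arrays, against 192, 159.8, 187 and 150.1 in evening arrays (1.89-fold, log2 difference of 0.92 ± 0.17 SE, adjusted p = 0.011). AFR, an F-box protein of far-red light signalling, read 325, 145, 273, 112 and 239 in morning arrays, against 67.1, 76, 88.1 and 118 in evening arrays (2.38-fold, log2 difference of 1.25 ± 0.29 SE, adjusted p = 0.033; not called without hour 26, 34, 38, 50, 58 or 74, adjusted p up to 0.10). Its late values of 209, 404, 234 and 341 reached above every morning value at hours 46 and 70. The sides were separate for THI2.2 and overlapped for AFR at hours 54 and 62. MYBC1, a transcription factor of the MYB type, was 1.63-fold higher (adjusted p = 0.032), TIL, a lipocalin of heat and cold tolerance, 1.44-fold (adjusted p = 0.0496), and ALDH11A3, the cytosolic non-phosphorylating glyceraldehyde 3-phosphate dehydrogenase, 1.43-fold (adjusted p = 0.035). HSA32, a protein of lasting heat tolerance, was 1.36-fold higher, P1R1 1.49-fold and BUG22 1.36-fold (adjusted p = 0.031, 0.0496 and 0.0453). The calls of these 6 genes each rest on most arrays. MYBC1 was lost without hour 26, 30, 34, 38, 62 or 74, TIL without 30, 34, 38, 54, 62 or 74, ALDH11A3 without 34, 38, 50, 58, 62 or 74, HSA32 without 30, 34, 38, 50, 54, 58 or 62, P1R1 without 30, 34, 50, 54, 58, 62 or 74 and BUG22 without 30, 34, 38, 50, 54, 62 or 74, with adjusted p up to 0.15.

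**Figure D2:**
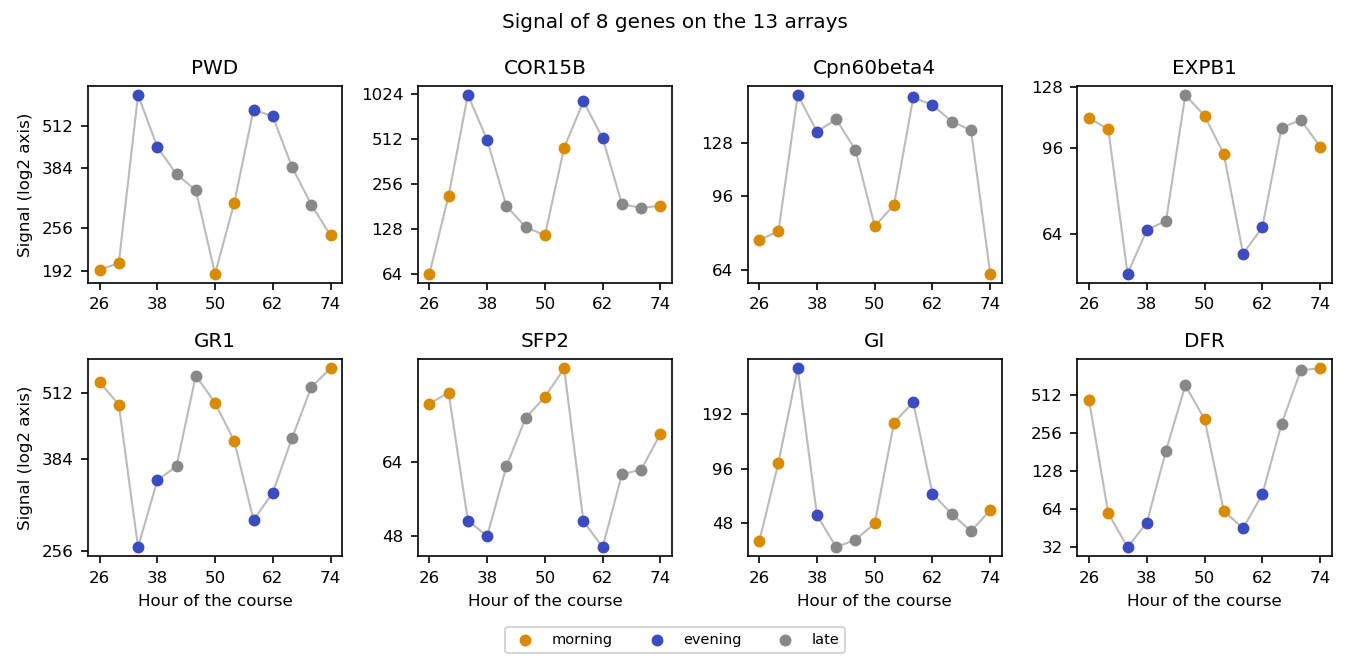
Signal (log2 axis) against hour of the course for 8 genes on the 13 arrays, with points coloured by morning, evening and late arrays and joined in time order. EXPB1, GR1 and SFP2 have every morning point above every evening point and PWD, COR15B and Cpn60beta4 have every morning point below, while GI and DFR change between neighbouring hours of a side.

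On the evening side, AT1G07050 had the largest fold among genes with a single annotation, though not with the offset. It read 11.7, 19.7, 12.5, 39.2 and 15 in morning arrays, against 161, 70.1, 119 and 64.4 in evening arrays (5.47-fold higher in evening, log2 difference of -2.45 ± 0.37 SE, adjusted p = 0.0034). Its morning signals lie under the mean of 31.8 set as filter on all but hour 54, and with the offset it was 2.56-fold higher in evening, beside 3.95-fold for AT4G34950. AT4G34950 read 58.5, 243, 78.6, 257 and 142 in morning arrays, against 720.4, 661, 538 and 638 in evening arrays (4.8-fold higher in evening, log2 difference of -2.26 ± 0.39 SE, adjusted p = 0.0073). AT4G32340 read 58.3, 294, 96.1, 362 and 85.6 in morning arrays, against 747, 559, 617 and 509 in evening arrays (4.34-fold higher in evening, adjusted p = 0.028). In both, the morning values fell into a low set at hours 26, 50 and 74 and a higher set at hours 30 and 54, still below every evening value. AT4G32340 was not called without hour 34, 38, 50, 58, 62 or 74 (adjusted p up to 0.083). AT1G78995 was 4.25-fold higher in evening (2.33-fold with the offset; not called without hour 34, 38, 50, 58, 62 or 74, adjusted p up to 0.092), AT4G30650 3.62-fold (not called without hour 34 or 58, adjusted p up to 0.074) and AT4G16146 3.52-fold (not called without hour 34, adjusted p = 0.0507).

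AT2G21130 read 76.9, 112, 88.3, 192 and 137 in morning arrays, against a nearly flat 336, 348, 361 and 333 in evening arrays (3.0-fold higher in evening, log2 difference of -1.58 ± 0.22 SE, adjusted p = 0.0020). AT1G31690 was 2.41-fold higher in evening (adjusted p = 0.0015) and AT5G14550 2.5-fold (1.64-fold with the offset, adjusted p = 0.00053). These 3, like AT1G07050, were called in every alternative that tested them.

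The starch breakdown enzymes PWD and DPE1 were higher in the evening. Of 3 tested starch genes 0 were higher in morning arrays and 2 in evening arrays, with a median log2 difference of -1.14. Over all tested probe sets 2.63% were higher in evening arrays. Only these 3 starch genes were matched by name here, so the count says nothing of the pathway. PWD, the phosphoglucan water dikinase that phosphorylates starch for its breakdown, read 193, 202, 188, 304 and 244 in morning arrays, against 629.6, 443, 571 and 544 in evening arrays (2.44-fold higher in evening, log2 difference of -1.29 ± 0.15 SE, adjusted p = 0.00098). DPE1, the plastid disproportionating enzyme that acts on the short sugars left by starch breakdown, read 56.3, 134, 82.5, 176 and 92.2 in morning arrays, against 243, 185, 272 and 195 in evening arrays (2.21-fold higher in evening, log2 difference of -1.14 ± 0.28 SE, adjusted p = 0.039). The sides stood far apart for PWD, which was called in all 20 alternatives, and close for DPE1, where hours 54 and 38 nearly met and the call was lost without hour 34, 38, 50, 58, 62 or 74 (adjusted p up to 0.12). SBE2.2, a branching enzyme of starch synthesis, had the opposite sign, with 393, 356, 408, 357 and 425 in morning arrays, against 319.7, 249.5, 342 and 304 in evening arrays, a log2 difference of 0.36 that did not pass (adjusted p = 0.086) although the sides did not overlap.

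COR15B had the largest evening excess among genes with a symbol, and a second cold-regulated gene was also higher in the evening. All 4 tested members of the cold and dehydrin list had a negative difference, with a median of -1.0, and 2 were called higher in evening arrays. Over all tested probe sets 2.63% were higher in evening arrays and the median was -0.01, and no test of the list was run. COR15B, a cold-induced protein that protects chloroplast membranes, read 64.2, 215, 116, 449.6 and 184 in morning arrays, against 1016, 507, 920.3 and 522 in evening arrays (4.21-fold higher in evening, log2 difference of -2.07 ± 0.46 SE, adjusted p = 0.026). COR47, a dehydrin, read 452, 361, 301, 338 and 323 in morning arrays, against 819.6, 539, 623 and 521 in evening arrays (1.75-fold higher in evening, log2 difference of -0.81 ± 0.15 SE, adjusted p = 0.011). No value overlapped between sides, but within the evening side COR15B was about 2-fold higher at hours 34 and 58 than at hours 38 and 62, and its call was lost without hour 34, 50 or 58 (adjusted p up to 0.083). COR15A, the neighbouring relative of COR15B, read 92.2, 215, 132, 356 and 477 in morning arrays, against 559, 315, 741 and 446 in evening arrays (-1.20, adjusted p = 0.16), with the morning values of hours 54 and 74 inside the evening range. LTI30 had a log2 difference of -0.32 (adjusted p = 0.32). COR15A and COR15B are close copies, and how far their probe sets cross-hybridise was not tested.

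Several nuclear genes for plastid proteins were higher in the evening. They are given through a list made after the calls were seen, so its count describes these genes and supports nothing about plastid genes at large. The list, of all symbols beginning with CRR, OTP, LPA, HCF, CFM, Ndh or Cpn60 (factors that edit, splice or assemble chloroplast complexes and subunits of the plastid NDH complex and chaperonin), had 18 tested members. Of these 0 were higher in morning arrays and 6 in evening arrays, 16 had a negative difference, and the median was -0.37. Among all tested probe sets 2.63% were higher in evening arrays and the median was -0.01, and no test of the list was run. The NDH complex carries electrons round photosystem I, and several CRR and OTP proteins edit its plastid transcripts. Cpn60beta4, a chaperonin subunit needed to fold an NDH subunit, read 75.4, 79.1, 81.3, 91.4 and 62.7 in morning arrays, against 166, 136, 164 and 158 in evening arrays (2.01-fold higher in evening, log2 difference of -1.01 ± 0.12 SE, adjusted p = 0.00090). NdhN, a nuclear-encoded subunit of the complex, read 267, 278, 334, 275 and 276 in morning arrays, against 366, 519, 428 and 576 in evening arrays (1.63-fold higher in evening, log2 difference of -0.71 ± 0.13 SE, adjusted p = 0.011). Both kept the sides apart, and both were called with any 1 array left out. OTP84 and CRR21 are RNA-editing factors of the pentatricopeptide repeat family. OTP84 read 19.5, 34.8, 27.1, 33.4 and 20.6 in morning arrays, against 47.8, 48.2, 45.6 and 44.2 in evening arrays (1.76-fold higher in evening, adjusted p = 0.032). CRR21 read 33.3, 31.7, 37.9, 26.4 and 28 in morning arrays, against 57.8, 41.1, 46 and 54.1 in evening arrays (1.58-fold higher in evening, adjusted p = 0.031). Both are dim with no overlap, and the calls were lost without hour 34, 38, 50, 58, 62 or 74 for OTP84 (adjusted p up to 0.087) and without hour 30, 34, 54, 58, 62 or 74 for CRR21 (adjusted p up to 0.10). LPA2, which helps assemble photosystem II, was 1.45-fold higher in evening (not called without hour 38, 50, 58 or 62, adjusted p up to 0.076), and CRR42, an NDH assembly factor, 1.43-fold (not called without hour 26, 30, 38, 50, 54, 58, 62 or 74, adjusted p up to 0.13).

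Genes that the plastid itself encodes, in 2 lists also made after the calls were seen, gave no call. Of 10 plastid-encoded NDH subunits 0 were called, with a median log2 difference of -0.06, and of 15 plastid-encoded ribosomal proteins 0 were called, with a median of -0.15. Among all tested probe sets 4.68% were called and the median was -0.01. Lists this short can hold 0 calls at that share, so the counts do not set plastid-encoded genes apart from other genes. ndhH, the subunit whose folding needs Cpn60beta4, read 120.1, 72.7, 82.3, 100.3 and 61 in morning arrays, against 155, 103, 94.4 and 92 in evening arrays (-0.36, adjusted p = 0.41). How well the labelling takes up plastid transcripts was not tested. Among the nuclear members, NdhS and Cpn60beta3 had the 2 positive differences (0.21 and 0.15, adjusted p = 0.40 and 0.64), and Cpn60beta2 and OTP70 had -0.40 and -0.43 (adjusted p = 0.11 and 0.0526).

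Other evening genes with a symbol are given singly and were picked for having been called. CHL, the chloroplastic lipocalin, which protects thylakoid lipids, read 88.7, 181, 103, 276 and 145 in morning arrays, against 470.3, 477, 449 and 439.9 in evening arrays (3.14-fold higher in evening, log2 difference of -1.65 ± 0.27 SE, adjusted p = 0.0056). THIC, the plastid enzyme that makes the pyrimidine part of thiamin, read 404, 619, 441, 914 and 673 in morning arrays, against 1242, 1295, 1463 and 1271 in evening arrays (2.25-fold higher in evening, log2 difference of -1.17 ± 0.20 SE, adjusted p = 0.0079). MAP1C, a methionine aminopeptidase of the organelles, read 102, 135, 129, 171 and 123 in morning arrays, against 396, 270.3, 303 and 282 in evening arrays (2.38-fold higher in evening, log2 difference of -1.25 ± 0.15 SE, adjusted p = 0.0012). In all 3 each morning value lay below each evening value, with hour 54 the highest of the morning. CAF1, a splicing factor for plastid introns, read 54.6, 32.8, 52.5, 40.1 and 48.7 in morning arrays, against 107, 73.8, 90.1 and 87.4 in evening arrays (1.98-fold higher in evening, log2 difference of -0.98 ± 0.17 SE, adjusted p = 0.0068). Mfl1, a mitoferrin-like iron carrier of the chloroplast, was 1.76-fold higher in evening (morning 114, 90.6, 94.9, 97.1 and 67.1, evening 145, 199.7, 155 and 149.9, adjusted p = 0.011). RH39 and RAP, which act on plastid ribosomal RNA, were 1.38-fold and 1.37-fold higher in evening (adjusted p = 0.026 and 0.0455), FTSZ2-1, of the plastid division ring, 1.32-fold (adjusted p = 0.0419) and ADCL, of folate synthesis, 1.36-fold (adjusted p = 0.0447). These last 4 calls were fragile. RH39 was lost without hour 34, 38, 50 or 58, RAP without 26, 30, 34, 50, 54, 58, 62 or 74, FTSZ2-1 without 30, 34, 38, 54, 58, 62 or 74 and ADCL without 26, 30, 34, 38, 50, 54, 62 or 74, with adjusted p up to 0.14.

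The carboxypeptidase-like proteins scpl35 and SCPL49 were higher in the evening. In the list of their family, made after these calls were seen, 0 of 13 tested were higher in morning arrays and 2 in evening arrays, with a median log2 difference of -0.07. Among all tested probe sets 2.63% were higher in evening arrays and the median was -0.01. As the list was made for these calls, its count says nothing of the family. Some of this family cleave peptides in the vacuole and others transfer acyl groups. scpl35 read 88.8, 80.5, 77.7, 103 and 104 in morning arrays, against 211, 324, 268 and 234 in evening arrays (2.84-fold higher in evening, log2 difference of -1.51 ± 0.14 SE, adjusted p = 0.00026). SCPL49 read 464, 609.5, 527, 648 and 657 in morning arrays, against 997, 1123, 1082 and 1026 in evening arrays (1.83-fold higher in evening, log2 difference of -0.87 ± 0.11 SE, adjusted p = 0.0014). Both were separate on every array and called in all 20 alternatives. Another member, scpl46, had the opposite sign and was not called (1.12, adjusted p = 0.096).

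The remaining evening genes with a symbol were likewise picked for having been called. PDC2, a pyruvate decarboxylase of ethanol fermentation, read 116, 101, 93.6, 162 and 104 in morning arrays, against 193, 227, 220.5 and 253 in evening arrays (1.97-fold higher in evening, log2 difference of -0.98 ± 0.15 SE, adjusted p = 0.0044). TUB9, a beta-tubulin, read 376, 363, 379.7, 346 and 384 in morning arrays, against 542, 572, 541 and 513 in evening arrays (1.47-fold higher in evening, log2 difference of -0.55 ± 0.08 SE, adjusted p = 0.0019). TUB9 was the only 1 of 8 tubulins and actins called (median -0.18). With 4.68% of all tested probe sets called (median -0.01), this is a result about TUB9 and not about the family. TUB5 swung within the morning side, at 270.1, 665, 307, 605 and 323 in morning arrays, against 559, 548, 569.9 and 392 in evening arrays (-0.34, adjusted p = 0.55). LCR69, a defensin-like peptide, read 1292, 1182, 1480.0, 1427 and 1268 in morning arrays, against 2176, 2066, 2126 and 1862 in evening arrays (1.55-fold higher in evening, log2 difference of -0.63 ± 0.09 SE, adjusted p = 0.0026). PDC2, TUB9 and LCR69 had no overlap and were called in all 20 alternatives. WLIM1, which bundles actin, was 1.58-fold higher in evening with sides that overlapped at hours 30 and 62 (adjusted p = 0.0437). RBL, a homologue of a human histone methyltransferase subunit, was 1.57-fold higher in evening, AGL26, a MADS-box factor, 1.38-fold, PRH75, a nucleolar RNA helicase, 1.36-fold, and NRPA2, the second largest subunit of RNA polymerase I, 1.29-fold (adjusted p = 0.021, 0.0485, 0.029 and 0.033). WLIM1 was not called without hour 26, 34, 38, 50, 54, 58 or 74, RBL without 34, 38, 50 or 58, AGL26 without 26, 30, 34, 38, 50, 58, 62 or 74, PRH75 without 30, 34, 58 or 74 and NRPA2 without 26, 30, 34, 38, 50, 58, 62 or 74, with adjusted p up to 0.14.

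**Figure D3:**
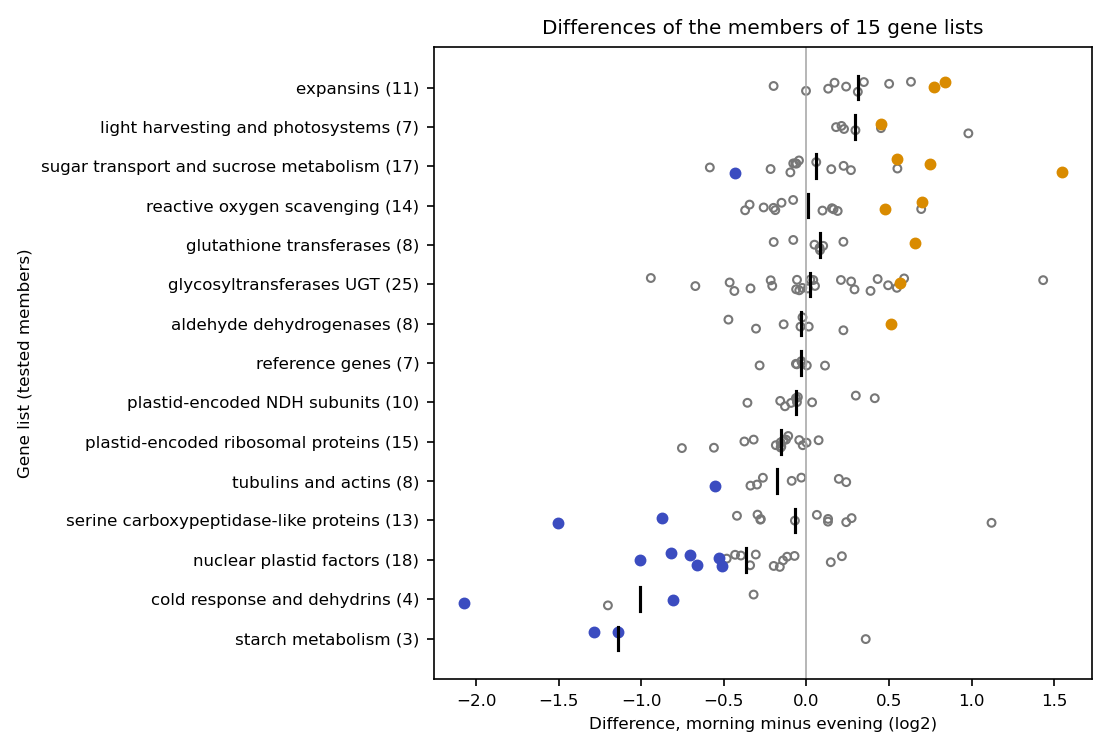
Log2 difference, morning minus evening, of each tested member of 15 gene lists (number tested in brackets). Filled points passed the test (orange higher in morning, blue higher in evening), open points did not, and black bars are list medians. Filled points lie on the right for expansins, photosystems, oxygen scavenging, glutathione transferases, glycosyltransferases and aldehyde dehydrogenases, on both sides for sugar transport, and on the left for starch, cold, nuclear plastid, carboxypeptidase and tubulin genes. The aldehyde dehydrogenase, carboxypeptidase, nuclear plastid and plastid-encoded lists were made after the calls were seen. So were some members of the sugar transport and oxygen scavenging lists added.

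In all, 45 of the 53 gene lists examined had a tested member, and 12 of those had a call. The 12 include the carboxypeptidase, aldehyde dehydrogenase and nuclear plastid lists, which were made after their calls were seen. With 4.68% of all tested probe sets called, a list of several members can also hold a call at that share. The number of lists with a call is therefore only a description. The 7 reference genes tested gave 0 calls and a median log2 difference of -0.03, beside -0.01 for all tested probe sets.

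Some genes with large swings changed within a side, from one hour of day to the next, and were not called. Of 4 tested clock and clock-associated genes 0 were called (median -0.11), and most core clock genes are not paired with a probe set by name here. GI, a clock protein of the evening that stabilises a photoreceptor, read 38.1, 103, 47.8, 172 and 56.6 in morning arrays, against 343, 53.1, 223 and 69.9 in evening arrays (-0.87, adjusted p = 0.47). Its evening signals were high at hours 34 and 58 and low at hours 38 and 62, and its morning signals were higher at hours 30 and 54 than at hours 26, 50 and 74. The clock regulator TIC had a log2 difference of -0.28 (adjusted p = 0.53). All 5 tested flavonoid and anthocyanin genes had a positive difference, with a median of 0.95, and 0 were called. DFR, the dihydroflavonol reductase on the way to anthocyanins, read 465, 58.9, 329, 61.5 and 834 in morning arrays, against 31.8, 49.6, 44.8 and 83.5 in evening arrays (2.13, adjusted p = 0.13). It was high at hours 26, 50 and 74 and near evening levels at hours 30 and 54, and its late signals were 185, 611, 302 and 805. HYH, a light-signalling factor, had larger signals at hours 26, 50 and 74 than at hours 30 and 54, with 74.9, 25.5, 56.4, 20.4 and 37.8 in morning arrays, against 14.9, 31.7, 20.7 and 36.2 in evening arrays (0.65, adjusted p = 0.41).

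Few called probe sets changed 2-fold between the hours of a side, a change that the test counts as spread. Of the 279 higher in morning arrays, 181 had a higher mean at hour 2 than at hour 6 and 98 the reverse, and 11 differed 2-fold or more between these hours. Of the 359 higher in evening arrays, 194 had a higher mean at hour 10 than at hour 14 and 165 the reverse, and 3 differed 2-fold or more. The late arrays, which had no part in the test beyond the filter on mean signal, mostly lay in the middle. For the 279, the late mean was between the side means in 198, above both in 53 and below both in 28. The 53 include GR, SAG29, EXPB3, GSTU20 and CaS, which were higher in morning than in evening arrays but not highest in the morning. Their late log2 means were 8.93, 7.70, 9.90, 10.53 and 10.17, against morning means of 8.92, 7.47, 9.83, 10.48 and 10.01. For the 359 the late mean was between the side means in 294, above both in 46 and below both in 19. Neither these counts nor those of 2-fold changes within a side were made over all tested probe sets. They therefore do not set the called probe sets apart from the rest. EXPB1 had late values of 68.2, 123, 106 and 109.6 at hours 42, 46, 66 and 70, and GR1 had 372, 552, 420.4 and 525. In both, hour 42 lay below the morning range and the other 3 within or above it. Cpn60beta4 had late values of 146, 123, 144 and 137, of which only that of hour 46 lay outside its evening range.

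**Figure D4:**
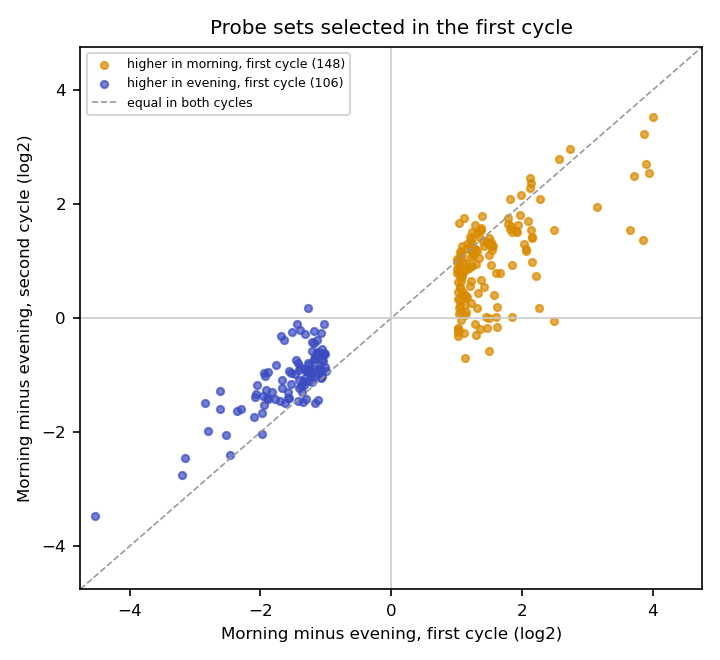
Log2 difference, morning minus evening, in the second cycle (hours 50 to 62) against the first (hours 26 to 38) for the 254 probe sets selected in the first cycle by at least 2-fold and no overlap. Of the 148 selected as higher in morning 132 lie above 0 in the second cycle, and of the 106 selected as higher in evening 105 lie below 0.

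The course holds the contrast more than once, which let a selection in one cycle be read in arrays it had not used. In the first cycle, hours 26 and 30 against hours 34 and 38, 254 of the 13647 probe sets (1.86%) differed at least 2-fold with no overlap. In the second cycle, hours 50 and 54 against hours 58 and 62, 237 of the 254 (93.3%) had the same direction, 132 of the 148 higher in morning and 105 of the 106 higher in evening. The median log2 difference of the 148 was 1.30 in the first cycle and 1.00 in the second, and that of the 106 was -1.35 and -0.99. Over all tested probe sets 65.0% had the same sign in both cycles, with a Pearson r of 0.62 across probe sets, which are not independent and share the 4 arrays of a cycle. The difference between cycles itself was called for 0 probe sets (0.0%) in limma's interaction test, with 277 at an unadjusted p under 0.05, and for 0 also in the fit without moderation, with 369. Both numbers are a smaller share of the 13647 than the 0.05 that chance alone gives. The arrays of a side in a cycle came from different hours of day, and change between those hours counts as spread. The 0 calls therefore do not show equal differences in the 2 cycles, which this interaction test could easily miss. The named genes with the smallest p in it, AT4G28240 (log2 difference -0.01 in the first cycle and 1.07 in the second) and BZIP28 (0.61 and -0.52), had an adjusted p of 1.00.

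The array of hour 74 stands alone after the second cycle, and a fit that left it out gave 491 calls (3.6%), 222 higher in morning arrays and 269 higher in evening arrays. The signal of hour 74 lay on the morning side of the midpoint between the side means for 194 of the 222 (87.4%) and 234 of the 269 (87.0%). The same share over all tested probe sets was not computed, so these percentages have no baseline here. PWD, with 207 as the mean signal at hour 2, 248 at hour 6, 599 at hour 10 and 491 at hour 14, was among the genes called on the same side in that fit.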

How the data were processed

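One deposited table was used, with a value for each of 22810 probe sets on each of 13 arrays. The values are intensities on a linear scale, made by the authors with MAS5 (version unstated), per the submitters' processing notes. Trimming 2% at each end left a mean of 100.01 on every array, so all had been scaled to 1 target, which hides a change in total RNA. Detection calls and scanner files were not used here. Precision is limited by the number of arrays.

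The 64 AFFX controls were left out. Of the 22746 other probe sets, the 13647 whose mean log2 signal over the 13 arrays lay above the 40th percentile (a signal of 31.8) were tested on the 5 morning and 4 evening arrays with limma 3.58.1 (lmFit, then eBayes with trend; R 4.3.3) and Benjamini-Hochberg adjusted p under 0.05. The cycle comparison was the interaction of side and cycle on hours 26 to 38 and 50 to 62. The fit was also run on simulated arrays with independent noise. These lack change with hour or day of the course, so they do not show how the fit behaves on the real arrays.

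Platform annotation named 1 gene for 13513 probe sets and several for 503, and left 8730 with none. Symbols came from the TAIR10.1 gene table, which matched 13436 of the 13513. Other probe sets are unnamed here, and no coordinates are printed (genome build not given in the sources used here). Each locus in a list was represented by its brightest probe set.

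The comparison, the members and the gene lists were chosen with earlier results of these data known. The lists for carboxypeptidases, aldehyde dehydrogenases, plastid factors, plastid-encoded NDH subunits and plastid-encoded ribosomal proteins, and the members SAG29, SFP1, SFP2 and GR, were added after the calls were seen. Genes were named by rule: the 15 largest differences on each side among called, non-overlapping probe sets with 1 gene, and from each list at most 4 called and 2 uncalled members. Other genes named were chosen after their values were seen. Promoter motifs were planned but not examined, as no sequence was used here. Alternatives changed the scaling, offset, filter, variance model, terms and arrays. Figures were drawn with matplotlib 3.10.9.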

Additional observations from a re-analysis of the deposited data

Results flagged for a closer look

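Among the 72 called genes named, 144 groups of arrays (5 morning or 4 evening values of a gene) were searched for a single array whose gap to its nearest neighbour took up an unusual share of the group's range. There were 6 such groups. The rule's rate of about 1 in 20 groups by chance holds for values that vary only at random. These groups mix hours of day and belong to genes picked for having been called. The 6 of 144 therefore cannot be set against that rate.

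AT5G35970 read 75.6 on the evening array of hour 38, against 148 to 155 on the other evening arrays. NdhN read 334 on the morning array of hour 50, against 267 to 278 on the other morning arrays, and RH39 read 60.8 on the same array, against 69.1 to 72.6. SWEET17 read 250.1 on the morning array of hour 54, against 324 to 357 on the other morning arrays. ALDH11A3 read 667 on the evening array of hour 38, against 764 to 784 on the other evening arrays. BUG22 read 180.0 on the morning array of hour 26, against 222 to 241 on the other morning arrays. The arrays that stand apart belong to hours 26, 38, 50 and 54.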

How the results depend on the processing

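The numbers of probe sets called depended on the variance model, the terms and single arrays. Beside 279 higher in morning arrays and 359 higher in evening arrays, a fit without limma's moderation gave 139 and 172, and a fit to means of each hour of day gave 466 and 561. The number higher in evening arrays was 222 with the cycle as a block and 235 without hours 26 and 74. With 1 array left out in turn, the number ranged from 169 to 266 for morning and from 193 to 374 for evening. The other alternatives moved neither count beyond 1.5 times. The cause was not tested, and the fits that left arrays out also had fewer of them. The comparison of cycles gave 0 calls without moderation, with the offset, with quantile normalization and without the filter. It also gave 0 with any 1 of its 8 arrays left out, an alternative added after the data were seen. The other alternatives were not run for it.

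Of the 72 called genes examined, 28 were called on the same side in every alternative that tested them, 44 lost the call in at least 1 of 20, and 0 reversed. Of 78 named genes without a call, 23 were called in at least 1 alternative. The titles all carry 1 replicate number, so arrays could not be paired by it. The fit with the cycle as a block, which sets morning against evening within a cycle, gave 198 and 222. Signals near or under the filter's 31.8 are dim for these arrays, and the folds of AT5G03350, AT1G13650, AT1G77960, AT1G07050, AT1G78995 and AT5G14550 depend on the offset added before the logarithm.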
